A study of Homo sapiens with 15 samples.

Results

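The genes described here are 40 immediate-early genes and feedback regulators of mitogen-activated protein kinase (MAPK) signalling, taken by gene symbol from a list of names. The list was chosen with earlier results of these data known. Shares of members set beside those of all genes are therefore descriptions and no independent test. Of these, 39 had at least 1 probe set of the Affymetrix hgu133a array that carried their symbol alone, 76 probe sets in all, and 31 were bright enough to be tested among the 6884 tested genes of 11963 measured. EGR2 was not analysed here because no probe set carried its symbol alone. FOS, FOSB, EGR3, DUSP6, NR4A1, NR4A2, SRF and ETV4 were measured but lay below the filter on low signals. Total RNA came from A549 cells, which the labels call a bronchial line and which is known as an epithelial line from a lung adenocarcinoma, on 15 arrays. The groups of 3 arrays each were cells with the cytokine IL-13 for 4 h, 12 h and 24 h, and cells without it at 24 h and at 0 h. The labels name no further agent and no IL-13 concentration. No untreated cells at 4 h or 12 h are among the labelled samples, so IL-13 and time in culture cannot be told apart in a difference between those times and 0 h. The labels do not say that the 3 arrays of a group came from separate cultures, so the p-values measure spread between arrays and that spread may be technical. In bulk RNA, fewer cells expressing a gene and less RNA of it per cell cannot be told apart.

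Immediate-early genes are transcribed within minutes of a growth factor, cytokine or stress signal, without new protein synthesis, because the factors that bind their promoters are already present and are switched on by phosphorylation. ERK, JNK and p38 kinases act on serum response factor (SRF) with its ETS partners, on CREB and on AP-1, and these drive FOS, JUN and EGR family factors. Many of the same genes shut the signal down again: DUSP phosphatases remove the activating phosphates of the kinases, Sprouty proteins act upstream near Ras, and ZFP36 family proteins destroy messages with AU-rich elements. In airway epithelium IL-13 is best known for signalling through STAT6, and growth factor signalling through ERK contributes to mucous change there.

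Within a group, arrays correlated between 0.972 and 0.979 over all genes, and array medians ran from 56.7 to 72.5 signal units, highest in the 24 h control at 69.5 ± 3.10 (mean ± SD, n = 3 arrays). The 3'/5' ratio of the beta-actin control probes, a measure of RNA integrity, moved with time: it averaged 1.001 in the 0 h control, 1.03 at 4 h, 1.08 at 12 h and 1.18 at 24 h with IL-13, and 1.17 in the 24 h control. The same ratio of the GAPDH control probes showed no such move. It averaged 0.881 in the 0 h control, 0.887 at 4 h, 0.874 at 12 h and 0.869 at 24 h with IL-13, and 0.896 in the 24 h control. The part of either ratio in the results was not tested. Among epithelial markers KRT8, KRT18 and KRT19 were well measured, from 119.9 units upward on every array, while EPCAM lay below the filter at 35.3 to 75.4. CDH1 passed the filter but varied between arrays, from 34.3 to 178.3 units. None of the 3 measured leukocyte markers and none of the 4 fibroblast markers passed the filter, and of the 3 endothelial markers PECAM1 did, at 48.2 to 83.8 units.

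Promoter sequence was available for 27 of the 40 genes, as windows from 250 bases before to 50 bases after the gene's outermost start in RefSeq (GRCh38.p14). The 5 windows below belong to genes that were lower after 4 h or 12 h of IL-13 and that hold a complete cyclic AMP response element (CRE), CArG box or AP-1 motif, the binding letters of CREB, SRF and AP-1. They are shown because these are the elements through which immediate-early genes are classically switched on. Capitals mark the CRE in DUSP1, JUND and PPP1R15A, a pair of CArG boxes in EGR1 and the AP-1 motif in IFRD1, and each window is written 5′ to 3′ on the gene's strand.
DUSP1 promoter, chr5:172771146-172771445, minus strand: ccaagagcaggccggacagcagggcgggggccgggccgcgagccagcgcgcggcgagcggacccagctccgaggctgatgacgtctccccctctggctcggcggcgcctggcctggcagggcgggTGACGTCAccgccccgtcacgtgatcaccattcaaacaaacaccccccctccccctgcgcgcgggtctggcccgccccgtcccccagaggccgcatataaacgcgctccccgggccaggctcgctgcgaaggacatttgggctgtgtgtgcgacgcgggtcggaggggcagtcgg
JUND promoter, chr19:18281573-18281872, minus strand: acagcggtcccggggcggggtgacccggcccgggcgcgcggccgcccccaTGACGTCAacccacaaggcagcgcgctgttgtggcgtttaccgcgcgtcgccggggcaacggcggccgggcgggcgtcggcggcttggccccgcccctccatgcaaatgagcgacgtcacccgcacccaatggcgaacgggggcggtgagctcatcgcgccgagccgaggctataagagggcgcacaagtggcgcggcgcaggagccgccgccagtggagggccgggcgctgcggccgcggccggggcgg
PPP1R15A promoter, chr19:48872171-48872470, plus strand: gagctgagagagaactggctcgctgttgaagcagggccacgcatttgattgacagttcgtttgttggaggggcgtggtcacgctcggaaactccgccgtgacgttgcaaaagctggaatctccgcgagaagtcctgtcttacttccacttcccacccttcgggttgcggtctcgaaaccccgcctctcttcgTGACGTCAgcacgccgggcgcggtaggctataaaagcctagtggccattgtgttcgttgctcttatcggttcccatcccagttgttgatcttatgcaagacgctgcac
EGR1 promoter, chr5:138465229-138465528, plus strand: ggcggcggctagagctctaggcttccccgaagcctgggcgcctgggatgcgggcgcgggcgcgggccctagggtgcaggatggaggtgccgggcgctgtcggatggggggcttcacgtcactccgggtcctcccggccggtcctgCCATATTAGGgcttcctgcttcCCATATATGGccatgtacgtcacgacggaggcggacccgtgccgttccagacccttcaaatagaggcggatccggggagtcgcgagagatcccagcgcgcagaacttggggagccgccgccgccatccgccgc
IFRD1 promoter, chr7:112422924-112423223, plus strand: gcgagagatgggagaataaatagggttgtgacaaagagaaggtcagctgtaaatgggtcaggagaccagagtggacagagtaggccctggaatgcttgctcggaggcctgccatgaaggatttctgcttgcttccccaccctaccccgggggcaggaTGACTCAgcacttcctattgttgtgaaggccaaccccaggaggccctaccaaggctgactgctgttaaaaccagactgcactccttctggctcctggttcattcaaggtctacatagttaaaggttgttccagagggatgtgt

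Both strands of each window were searched, and the same search ran over 24882 windows, 1 per gene. The CRE (TGACGTCA) was in 4 of the 27 windows (14.8%), those of DUSP1, JUND, PPP1R15A and MAFF, and in 2.01% of all windows. Its shorter core TGACG, which lies inside the CRE, was in 15 of 27 (55.6%) and in 25.2% of all. The CArG box was in 2 windows (7.41%), EGR1 and SRF, and in 1.31% of all, and the AP-1 motif (TGACTCA) was also in 2, FOSL2 and IFRD1, against 4.96% of all. The ETS motif (CCGGAAG) was in 2 windows, against 10.7% of all, the STAT motif (TTCNNNGAA) in 2, against 7.94% of all, and the EGR motif (GCGTGGGCG) in 0, against 0.780% of all. In the windows printed, the CRE starts 125 bases before the start site in DUSP1 and 200 in JUND, and the CArG boxes of EGR1 start 105 and 83 bases before it. IFRD1 has other annotated starts, which this window does not cover. These matches describe letters and were not measured as binding here. Of the 14 genes that fell at 4 h or 12 h, 9 have a window.

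The set as a whole stood lower after 4 h and 12 h of IL-13 and was back near the untreated level at 24 h. The mean over the 31 tested genes, on the log2 scale after quantile normalization, was 8.30 ± 0.04 in the 0 h control, 7.98 ± 0.07 after 4 h, 7.89 ± 0.05 after 12 h and 8.25 ± 0.02 after 24 h of IL-13, and 8.24 ± 0.06 in the 24 h control (SD, n = 3 arrays). No array of the 4 h or 12 h groups reached any array of the other 3 groups: the highest at 4 h was 8.05, the highest at 12 h was 7.95, and the lowest elsewhere was 8.19. The mean over all tested genes stayed at 7.90 or 7.91 in each group, as quantile normalization makes it. With the values as deposited the set means were 8.31, 7.97, 7.88 and 8.24 in the same order of times, and 8.25 in the 24 h control.

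**Figure D1:**
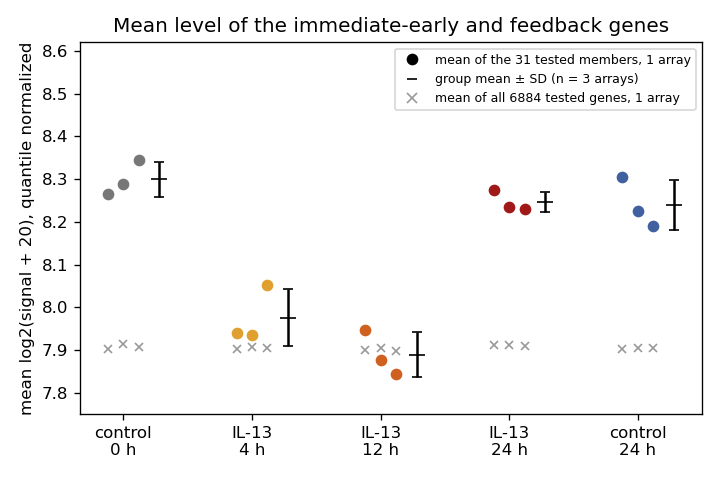
Mean log2(signal + 20) of the 31 tested genes on each of the 15 arrays (filled points), with the group mean ± SD (n = 3) beside them and the mean of all 6884 tested genes as crosses. The 4 h and 12 h arrays lie between 7.84 and 8.05, below every array of the other groups, while the crosses stay near 7.90.

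Gene by gene, a call means an adjusted p under 0.05 in limma, with p-values adjusted over all 6884 genes. After 4 h of IL-13 against the 0 h control, 6 of 31 members fell and 1 rose, while 1.22% of all tested genes were called. After 12 h against 0 h, 13 of 31 fell and 0 rose (41.9%), against 4.14% of all genes. After 24 h of IL-13 against 0 h, 1 fell and 2 rose, against 6.87% of all. Between 24 h and 12 h of IL-13, 12 rose and 1 fell, against 6.2% of all. The median log2 difference of the 31 was -0.32 at 4 h and -0.41 at 12 h against 0 h, -0.06 at 24 h against 0 h, and 0.30 at 24 h against 12 h, and the median over all tested genes was between -0.01 and 0.01 in each of these.

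Without any threshold on p, and on the quantile-normalized scale, 26 of the 31 members had a lower mean than the 0 h control at 4 h, and 26 at 12 h. Of all tested genes, 50.9% had a higher mean than the 0 h control at 4 h and 51.5% at 12 h. All 3 arrays lay below all 3 of the 0 h control for 17 members at 4 h, against 9.36% of all genes, and for 18 members at 12 h, against 12.1% of all genes. At 24 h of IL-13, 13 members had all 3 arrays above those of 12 h, against 13.3% of all genes. All 12 h arrays lay below all 6 untreated arrays, 0 h and 24 h alike, for 10 members (32.3%): ATF3, EGR1, ETV5, IER2, IER3, IFRD1, JUND, KLF2, MYC and PHLDA1. That held for 5.48% of all genes. At 4 h the same was true of 10 members, ATF3, DUSP1, IER3, IFRD1, KLF10, KLF2, MYC, PHLDA1, SPRY4 and ZFP36L1, against 4.45% of all genes. In the deposited signals the 4 h arrays of DUSP1 and SPRY4 overlapped the untreated ones, which left 8 members, while all 10 of the 12 h members held and GADD45B, KLF6, PPP1R15A and TIPARP joined them. Of the 5 groups, 12 h of IL-13 had the lowest mean for 14 members (45.2%) and for 17.2% of all tested genes.

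Between 12 h and 4 h of IL-13 no member passed the limma test, nor did any other gene (0% of all). The median difference of the members there was -0.06. Without IL-13, the 24 h control differed from the 0 h control by a median of -0.01, with 1 member higher and 2 lower, against 3.62% of all genes called. The comparisons with 0 h share the 0 h arrays, and the 24 h against 12 h comparison shares the 12 h arrays with that of 12 h against 0 h, so a low signal at 12 h enters both.

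**Figure D2:**
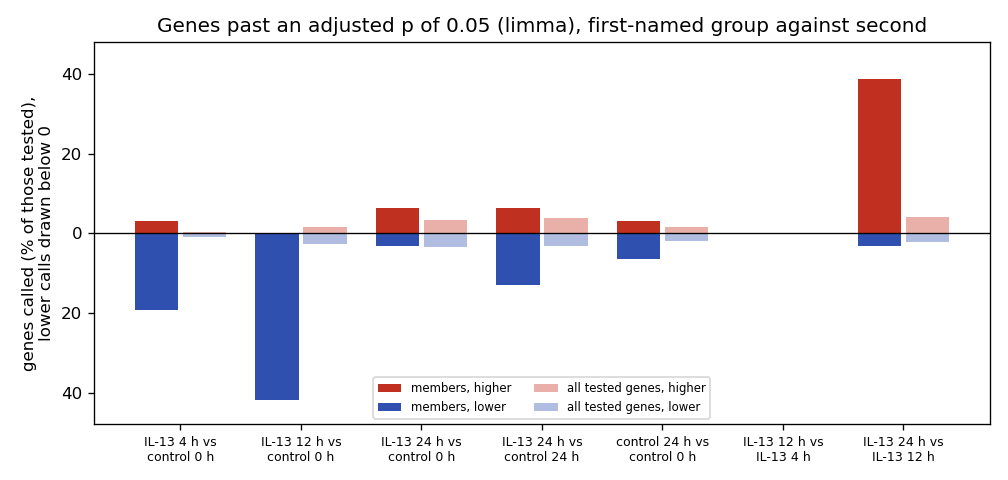
Share of tested genes past an adjusted p of 0.05 (limma) in each of the 7 comparisons, in percent, with higher calls above 0 and lower calls below it, for the 31 members (dark bars) and all 6884 tested genes (pale bars). At 12 h against 0 h the members' bar shows 13 genes lower and 0 higher, and at 24 h against 12 h of IL-13 it shows 12 higher and 1 lower.

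Signals below are the deposited linear values of a gene's chosen probe set on arrays a, b and c in that order. Log2 differences ± SE come from the fit to log2(signal + 20) after quantile normalization, which understates the changes of dim genes. Among the genes that code for AP-1, the dimer of Fos and Jun family proteins, FOSL1 fell at 12 h. FOSL1 encodes the Fos family protein Fra-1. Its signal was 259.5, 215 and 215 in the 0 h control, 169, 174 and 188 after 4 h, 90.8, 125 and 118 after 12 h and 128, 114 and 99.1 after 24 h of IL-13. The 24 h control had 154, 101 and 181. All 12 h and all 24 h IL-13 arrays were below the 0 h arrays, but the 24 h arrays of treated and untreated cells overlapped. The difference from 0 h was -0.93 ± 0.16 at 12 h (adjusted p = 0.0022) and -0.87 ± 0.16 after 24 h of IL-13 (adjusted p = 0.0031). In the 24 h control FOSL1 also fell, with a difference of -0.67 ± 0.16 from the 0 h control (adjusted p = 0.028). That last call was lost without array a or b of the 24 h control or without any 1 of the 0 h arrays (adjusted p from 0.0546 to 0.109).

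JUND, the Jun family member with the steadiest expression in most cells, had a modest fall at 12 h. It read 894, 1043 and 1011 in the 0 h control, 821, 798 and 914 after 4 h, 727, 745 and 604 after 12 h and 847, 864 and 757 after 24 h of IL-13, and 1219, 892 and 1069 in the 24 h control. Each 12 h array was below every untreated array. The difference at 12 h was -0.45 ± 0.12 from the 0 h control (adjusted p = 0.044), and it was lost without any 1 of the 6 arrays compared (adjusted p from 0.064 to 0.192). The other 2 JUND probe sets gave -0.80 and -0.72. FOSL2, which encodes Fra-2, had group means of 230.0 at 0 h, 181 after 4 h, 171 after 12 h and 198 after 24 h of IL-13, and 133 in the 24 h control, and passed no test between IL-13 times or between an IL-13 time and 0 h. JUNB averaged between 286 and 365 in every group and passed no test. JUN, the partner of FOS in the classical dimer, averaged 83.2 at 0 h, 75.9 at 4 h, 67.2 at 12 h and 58.0 at 24 h of IL-13, and 90.1 in the 24 h control, with no call. The low 24 h value was not shared by the other 3 JUN probe sets, which differed from 0 h by 0.06 to 0.23. The 2 of them above the filter were higher at 24 h than at 12 h of IL-13, by 0.54 and 0.63 (unadjusted p = 0.011 and 0.0033). The JUN probe set with the highest mean is of the cross-hybridizing kind and was set aside, and taking it instead left each count of calls unchanged. MAFF, a small Maf protein that pairs with other basic leucine zipper factors, averaged 118 at 0 h and 75.7 to 88.1 in the other groups, also with no call. That chosen set differed from 0 h by -0.41 at 12 h and -0.44 at 24 h of IL-13, and by -0.03 between 24 h and 12 h. The second MAFF probe set, below the filter, gave -0.88, -0.13 and 0.74 in the same order, so the 2 sets disagreed on a return at 24 h.

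The zinc finger and other transcription factors downstream of ERK and SRF include EGR1, ATF3, MYC, the Krüppel-like factors and the ETS factors. EGR1, a growth-factor-induced zinc finger protein and a standard readout of ERK activity, read 106, 85.7 and 94.4 in the 0 h control, 81.2, 50.3 and 63.0 after 4 h, 46.8, 54.5 and 58.6 after 12 h and 51.9, 84.6 and 69.5 after 24 h of IL-13. The 24 h control had 75.5, 107 and 76.2. No 12 h array reached an untreated one. The difference at 12 h from 0 h was -0.69 ± 0.17 (adjusted p = 0.028), and that call was lost without any 1 of the 6 arrays compared (adjusted p from 0.0546 to 0.1). Its second probe set, below the filter, differed by -0.13, and the mean of both sets gave no call (adjusted p = 0.189).

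ATF3, a stress-induced member of the ATF/CREB family that represses many targets, was low at both early times and high at the end. It read 204, 179.7 and 171 in the 0 h control, 148, 112 and 121 after 4 h, 114, 138 and 124 after 12 h and 266, 268 and 188 after 24 h of IL-13. The 24 h control had 221, 199 and 197. The 4 h and 12 h arrays were all below the 6 untreated arrays. The fall at 12 h against 0 h was -0.49 ± 0.13 (adjusted p = 0.038) and was lost without 12 h array a or c or any 1 of the 0 h arrays (adjusted p from 0.0649 to 0.135). Between 24 h and 12 h of IL-13 ATF3 rose by 0.83 ± 0.13 (adjusted p = 0.00087), and that call held in all 17 alternatives. At 24 h the treated and untreated arrays overlapped, with a difference of 0.23 ± 0.13 (adjusted p = 0.297).

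MYC, the growth-promoting factor induced soon after the first wave of immediate-early genes, fell and rose by small amounts with a narrow spread between arrays. It read 724, 751 and 657 in the 0 h control, 466, 579.6 and 582 after 4 h, 515, 484 and 526 after 12 h and 759, 671 and 625 after 24 h of IL-13, and 753, 735 and 664 in the 24 h control. All 6 arrays of the early IL-13 times were below all 6 untreated arrays. Its difference at 12 h from 0 h was -0.42 ± 0.10 (adjusted p = 0.024) and that of 24 h from 12 h was 0.39 ± 0.10 (adjusted p = 0.029). The 12 h fall was lost without any 1 of the 12 h arrays or 0 h array a or b (adjusted p from 0.0541 to 0.103). The later rise was lost without any 1 of the 12 h arrays or 24 h array a or b (adjusted p from 0.059 to 0.13).

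Of the Krüppel-like factors, KLF2 and KLF6 were called. KLF2, a factor that restrains inflammatory genes in endothelium, read 181, 115 and 119 in the 0 h control, 69.4, 69.1 and 82.7 after 4 h, 80.8, 74.5 and 91.0 after 12 h and 182, 118 and 132 after 24 h of IL-13, and 135, 95.9 and 131 in the 24 h control. All early arrays were below all untreated ones. KLF2 fell by 0.74 ± 0.17 at 4 h (adjusted p = 0.036) and fell by 0.62 ± 0.17 at 12 h (adjusted p = 0.042), both from 0 h, and rose by 0.67 ± 0.17 between 24 h and 12 h (adjusted p = 0.024). Array a of the 0 h control stood above the others, and without it the differences were -0.57 at 4 h (adjusted p = 0.209) and -0.46 at 12 h (adjusted p = 0.192). The 4 h call was also lost without 4 h array a, b or c or 0 h array b (adjusted p from 0.0691 to 0.136), and the 12 h call without any 1 of the other 5 arrays compared (adjusted p from 0.0602 to 0.117). The rise to 24 h was lost without 24 h array a or c or any 12 h array (adjusted p from 0.0522 to 0.122).

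KLF6, a widely expressed growth suppressor, had the largest fall of the set at 12 h. Its signal was 113, 159 and 134 in the 0 h control, 71.4, 77.6 and 90.9 after 4 h, 74.7, 79.7 and 27.7 after 12 h and 176, 142 and 122 after 24 h of IL-13, and 82.2, 95.5 and 84.3 in the 24 h control. Array c of the 12 h group was far below its partners. The difference at 12 h from 0 h was -1.02 ± 0.23 (adjusted p = 0.017). Without that array the difference was -0.65 (adjusted p = 0.0597), and the call was also lost without 0 h array b or c (adjusted p = 0.0888 and 0.0547). The rise between 24 h and 12 h, 1.13 ± 0.23 (adjusted p = 0.0069), held in all 16 alternatives, including the one without that array. The 24 h control was itself below the 0 h control in all 3 arrays, a difference of -0.64 ± 0.23 that did not pass (adjusted p = 0.131). Another KLF6 probe set above the filter gave -0.29 at 12 h against 0 h and 0.005 between 24 h and 12 h, so it showed no rise. The remaining set, below the filter, gave -1.20 and 1.48. KLF10, a target of TGF-beta signalling, averaged 529 at 0 h, 363 at 4 h, 353 at 12 h and 493 at 24 h of IL-13, and 544 in the 24 h control, and passed no test.

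Of the ETS family factors, ETV5, which is switched on by ERK, fell late. It read 275, 314 and 326 in the 0 h control, 196, 241 and 279 after 4 h, 181, 162 and 161 after 12 h and 345, 286 and 261 after 24 h of IL-13, and 346, 262 and 349.6 in the 24 h control. The 12 h arrays were below every other array. ETV5 fell by 0.76 ± 0.14 at 12 h from 0 h (adjusted p = 0.0034) and rose by 0.73 ± 0.14 between 24 h and 12 h (adjusted p = 0.0042). Its other 2 probe sets gave -0.36 and -0.28 at 12 h and 0.20 and 0.30 for the later rise, and the mean of the 3 sets gave no call in either comparison (adjusted p = 0.0835 and 0.107). ETS2, another ERK substrate, averaged 151 at 0 h, 156 at 4 h, 197 at 12 h and 186 at 24 h of IL-13, and 150.3 in the 24 h control. Its 12 h arrays were all above the 0 h arrays, but the difference of 0.36 ± 0.12 did not pass (adjusted p = 0.102).

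Of the feedback phosphatases tested, DUSP1 and DUSP5 were called and DUSP4 was not. DUSP1, which dephosphorylates p38, JNK and ERK in the nucleus, fell at 4 h and rose to 24 h. It read 2721, 2637 and 3121 in the 0 h control, 1957, 2182 and 2328 after 4 h, 2313, 2437 and 2139 after 12 h and 3130, 3248 and 3180 after 24 h of IL-13, and 2013, 2733 and 3038 in the 24 h control. The early arrays lay below all 0 h arrays, and the 24 h IL-13 arrays lay close together above them all. The difference at 4 h from 0 h was -0.46 ± 0.11 (adjusted p = 0.040). That call was lost in 10 of 17 alternatives, among them the values as deposited (-0.39, adjusted p = 0.149) and leaving out any 1 of the 4 h arrays or 0 h array a or c (adjusted p from 0.0879 to 0.179). The difference at 12 h from 0 h did not pass (-0.34 ± 0.11, adjusted p = 0.0841). Between 24 h and 12 h of IL-13 it rose by 0.57 ± 0.11 (adjusted p = 0.0031), which held in all 17 alternatives.

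DUSP5, a nuclear phosphatase specific for ERK and a product of ERK signalling, fell at both early times. It read 681, 719 and 643 in the 0 h control, 398, 435 and 464 after 4 h, 329, 355 and 444 after 12 h and 598, 557 and 515 after 24 h of IL-13, and 622, 439.7 and 574 in the 24 h control. The early arrays were all well below the 0 h arrays, and array b of the 24 h control lay within the early range. The differences from 0 h were -0.60 ± 0.13 at 4 h (adjusted p = 0.028) and -0.80 ± 0.13 at 12 h (adjusted p = 0.0016). The 12 h call held in all 17 alternatives, while the 4 h call was lost without any 1 of the 6 arrays compared (adjusted p from 0.0578 to 0.134). DUSP5 rose by 0.52 ± 0.13 between 24 h and 12 h (adjusted p = 0.024), a call lost without array a or b of either group (adjusted p from 0.0637 to 0.121).

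DUSP4, another nuclear MAPK phosphatase, passed no test. It averaged 175 in the 0 h control, 193 at 4 h, 196 at 12 h and 216 at 24 h with IL-13, and 188 in the 24 h control, with differences from 0 h of 0.11 to 0.28 after IL-13. The Sprouty genes, whose products restrain receptor tyrosine kinase signalling, passed no test either. SPRY2 averaged between 69.7 and 81.9 in all groups. SPRY4 averaged 128 at 0 h, 119, 130.1 and 119 at 4 h, 12 h and 24 h of IL-13, and 154 in the 24 h control. Whether DUSP4 or the Sprouty genes differ from DUSP5 in their response was not tested.

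Among the immediate early response genes, IER3 and IER5 moved in opposite directions at 4 h. IER3, an ERK substrate that protects cells from death signals, read 1040, 1150 and 1062 in the 0 h control, 653, 805 and 768 after 4 h, 625, 586 and 622 after 12 h and 1122, 850.0 and 838 after 24 h of IL-13, and 1060, 1020 and 1087 in the 24 h control. Every early array was below every untreated one. IER3 fell by 0.52 ± 0.10 at 4 h (adjusted p = 0.010) and fell by 0.77 ± 0.10 at 12 h (adjusted p = 0.00017) from 0 h, and rose by 0.55 ± 0.10 between 24 h and 12 h (adjusted p = 0.0025). The 12 h fall and the later rise held in all 17 alternatives, and the 4 h fall was lost without 4 h array a or 0 h array b (adjusted p = 0.066 and 0.0634).

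IER5, a nuclear protein induced by growth factors and heat stress, read 479, 502 and 472 in the 0 h control, 636, 613 and 685 after 4 h, 581, 492 and 512 after 12 h and 385, 427 and 449 after 24 h of IL-13. The 24 h control had 468, 453 and 467. The 4 h arrays stood above all others and the 24 h IL-13 arrays below all others. IER5 rose by 0.41 ± 0.09 at 4 h from 0 h (adjusted p = 0.040) and fell by 0.33 ± 0.09 between 24 h and 12 h of IL-13 (adjusted p = 0.042). Both calls were lost in 8 of 17 alternatives, median scaling among them (adjusted p = 0.211 and 0.253). Leaving out 4 h array a or c or any 1 of the 0 h arrays ended the first (adjusted p from 0.105 to 0.182), and leaving out any 1 of the 24 h arrays or 12 h array a or c ended the second (adjusted p from 0.0624 to 0.184). IER2, a further nuclear immediate-early protein, averaged 1134 at 0 h, 959 at 4 h, 860.2 at 12 h and 1108 at 24 h of IL-13, and 1198 in the 24 h control, with no call.

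PHLDA1, a pleckstrin-homology protein whose gene is induced through ERK, fell early and was back near its 0 h level after 24 h of IL-13. It read 616, 680.3 and 913 in the 0 h control, 454, 401 and 349 after 4 h, 459.6, 419 and 356 after 12 h and 706, 732 and 695 after 24 h of IL-13, and 902, 827 and 850.3 in the 24 h control. Every early array was below every untreated one. The differences from 0 h were -0.80 ± 0.13 at 4 h (adjusted p = 0.0027) and -0.76 ± 0.13 at 12 h (adjusted p = 0.0020), and the rise between 24 h and 12 h was 0.73 ± 0.13 (adjusted p = 0.0024). The other 4 probe sets spanned -0.86 to -0.09 at 4 h and -0.82 to -0.02 at 12 h. The mean of all 5 gave no call at 4 h (adjusted p = 0.091) or 12 h (adjusted p = 0.0524). For the rise between 24 h and 12 h the other 4 spanned -0.29 to 0.86, and the mean of all 5 kept the call. On the chosen set all arrays after 24 h of IL-13 lay below those of the 24 h control, but that difference, -0.37, did not pass.

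IFRD1, a transcriptional co-regulator first known as a growth-factor-induced gene, had the largest rise of the set between 12 h and 24 h. Its signal was 222, 244 and 258 in the 0 h control, 125, 150.4 and 99.5 after 4 h, 138, 121 and 139.6 after 12 h and 372, 366 and 462 after 24 h of IL-13, and 358, 280.4 and 276 in the 24 h control. It thus lay below both controls early and above both at 24 h on every array. IFRD1 fell by 0.83 ± 0.14 at 4 h (adjusted p = 0.0031), fell by 0.75 ± 0.14 at 12 h (adjusted p = 0.0034), and rose by 0.68 ± 0.14 at 24 h (adjusted p = 0.0053), each against 0 h. Between 24 h and 12 h of IL-13 the rise was 1.43 ± 0.14, or 2.70-fold (adjusted p = 5.6e-06). Each of these 4 calls held in all 17 alternatives, and the second IFRD1 probe set gave -0.87, -0.86, 0.28 and 1.13. At 24 h the difference from untreated cells did not pass (0.36 ± 0.14, adjusted p = 0.119).

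**Figure D3:**
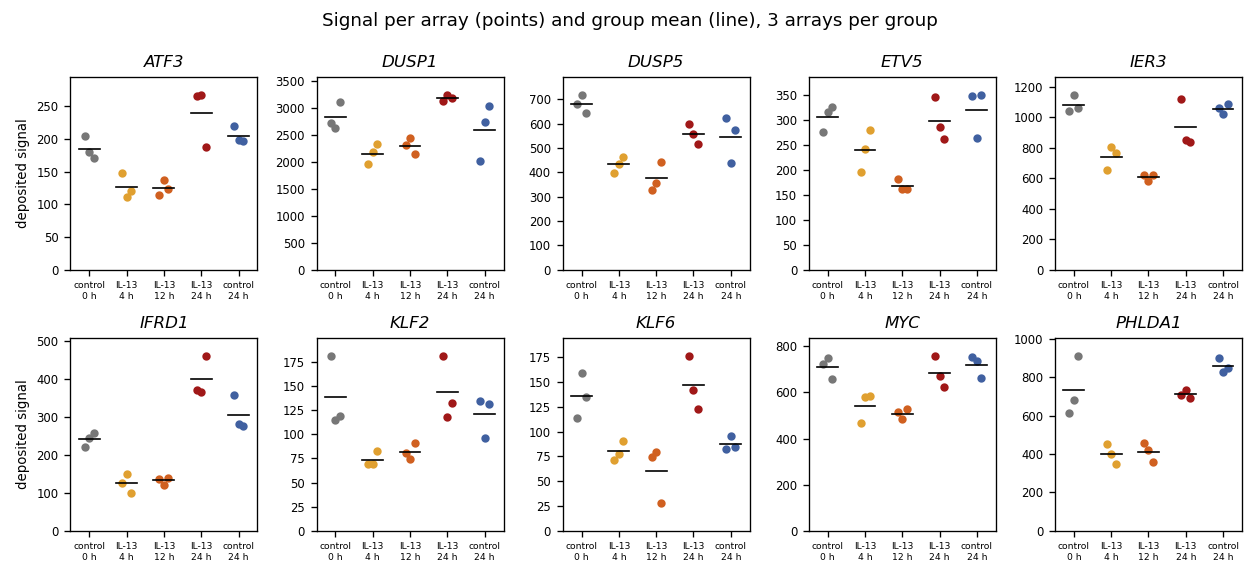
Deposited signal on each array (points) and group mean (line) over the 5 groups for the 10 members that were lower at 4 h or 12 h against 0 h and higher at 24 h against 12 h of IL-13, calls that share the 12 h arrays. The 24 h control (blue) shows where untreated cells stood at that time, for example at 276 to 358 for IFRD1, and the 12 h array of KLF6 at 27.7 lies apart.

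The GADD45 genes rose between 12 h and 24 h of IL-13. GADD45A, a growth arrest and DNA damage protein that can activate the p38 and JNK pathway, read 305, 337 and 446 in the 0 h control, 315, 252 and 287 after 4 h, 215, 305 and 290.3 after 12 h and 614, 587 and 517 after 24 h of IL-13, and 304, 260.2 and 307 in the 24 h control. The 24 h IL-13 arrays exceeded every other array. GADD45A rose by 0.997 ± 0.14 between 24 h and 12 h (adjusted p = 0.00047) and by 0.63 ± 0.14 at 24 h against 0 h (adjusted p = 0.013). The last call was lost without 0 h array a or b (adjusted p = 0.0645 and 0.0541). GADD45B, its relative induced by cytokines, read 159.6, 159.7 and 168 in the 0 h control, 78.3, 52.3 and 132 after 4 h, 103, 75.6 and 83.9 after 12 h and 208, 143 and 221 after 24 h of IL-13, and 133, 185 and 109 in the 24 h control. Its rise between 24 h and 12 h was 0.96 ± 0.23 (adjusted p = 0.017), lost without 24 h array a or c or 12 h array b or c (adjusted p from 0.0501 to 0.0814). The early differences from 0 h, -0.81 ± 0.23 at 4 h and -0.77 ± 0.23 at 12 h, did not pass (adjusted p = 0.112 and 0.0622). After 24 h of IL-13 GADD45B differed from 0 h by 0.19, with no call. Its cross-hybridizing probe set gave -1.68 at 12 h against 0 h and 1.97 between 24 h and 12 h. Another set above the filter gave -0.23 and 0.52, and the set below the filter gave -0.16 and -0.09.

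PPP1R15A, known as GADD34, brings protein phosphatase 1 to the translation factor eIF2 alpha and so ends a stress-induced block of translation. It read 202, 246 and 207 in the 0 h control, 133, 139 and 166 after 4 h, 144, 116 and 127 after 12 h and 179, 230.3 and 133 after 24 h of IL-13, and 219.6, 148 and 163 in the 24 h control. All early arrays were below all 0 h arrays, while the 24 h groups overlapped widely. The fall at 12 h was -0.66 ± 0.16 (adjusted p = 0.029) and was lost without 12 h array b or c or any 1 of the 0 h arrays (adjusted p from 0.0601 to 0.136). Its second probe set gave a larger difference, -1.89 at 12 h, but lay below the filter.

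TIPARP, an ADP-ribosyltransferase that restrains the aryl hydrocarbon receptor, and the ZFP36 family passed no test at 4 h or 12 h with the probe set chosen for each gene. TIPARP averaged 186 at 0 h, 167 at 4 h and 161 at 12 h, and ZFP36 averaged 165, 169.5 and 139 at the same times. ZFP36L2 averaged 228, 246 and 249. ZFP36L1 averaged 719 at 0 h, 572 at 4 h and 577 at 12 h, with -0.29 ± 0.12 at both times (adjusted p = 0.356 and 0.22). Its other probe set above the filter read 225, 216 and 223 at 4 h and 165, 179 and 161 at 12 h of IL-13, against 254, 319 and 445 at 0 h, all lower. That set differed from 0 h by -0.51 at 4 h, by -0.87 at 12 h and by -1.19 at 24 h of IL-13 (unadjusted p = 0.010, 0.00016 and 5.9e-06), and by -0.96 in the 24 h control. The 2 remaining sets lay below the filter. These proteins bind AU-rich messages, FOS and cytokine messages among them, and mark them for decay.

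**Figure D4:**
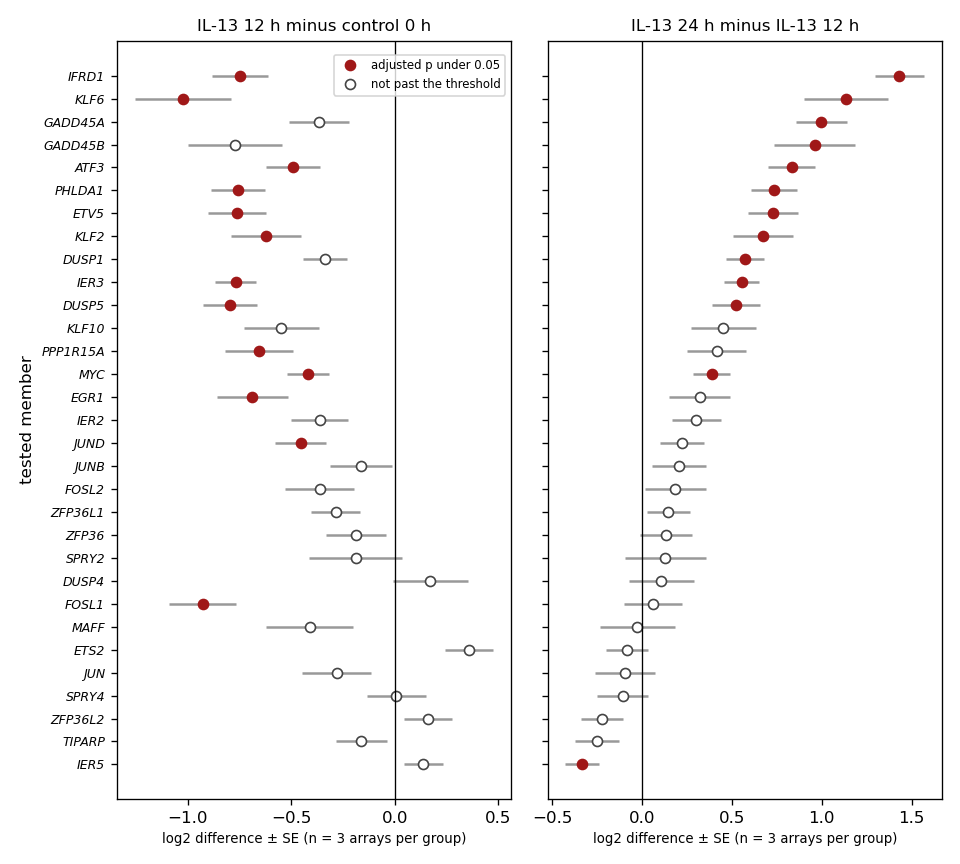
Log2 difference ± SE (n = 3 arrays per group) for the 31 tested members, IL-13 12 h minus control 0 h on the left and IL-13 24 h minus IL-13 12 h on the right, ordered by the right panel, with filled points for an adjusted p under 0.05. IFRD1 is at the top with 1.43 and IER5 at the bottom with -0.33 on the right, and the panels share the 12 h arrays.

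The time-matched question, how IL-13 and control cells differed after equal time in culture, was open to test at 24 h alone. Against the 24 h control, 2 rose and 4 fell among the 31, while 7% of all tested genes were called, and the median difference was -0.10. The split depends on the scaling: with each array set to the same median over all probe sets, 8 members rose and 1 fell, but that scaling also moved the median of all tested genes by 0.17 on the log2 scale and called 1238 genes. The array medians of the 24 h control are the highest, as given above. Changes here are therefore relative to the quantile-normalized bulk of genes.

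GADD45A rose most. It read 614, 587 and 517 after 24 h of IL-13, against 304, 260.2 and 307 in the 24 h control, a difference of 0.91 ± 0.14 or 1.88-fold (adjusted p = 0.0012) that held in all 17 alternatives. ZFP36L2 fell most: it read 244, 193 and 206 with IL-13, against 368, 427 and 375 without it, a difference of -0.82 ± 0.12 (adjusted p = 0.00043) that also held in all 17. Its level after 24 h of IL-13 was close to that of the 0 h control, which read 199.7, 229 and 255. In untreated cells ZFP36L2 rose by 0.76 ± 0.12 at 24 h against 0 h (adjusted p = 0.0017), so its fall is measured against a control that had risen. The other 2 probe sets of ZFP36L2 showed no such rise in the control, with -0.05 and 0.10, and the mean over its sets gave no call there (0.27, adjusted p = 0.232). They did share the sign of the fall with IL-13, at -0.45 and -0.31.

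ZFP36, the founding member also called tristetraprolin, read 144, 165 and 153 after 24 h of IL-13, against 251, 189 and 258 in the 24 h control. It fell by 0.49 ± 0.14 (adjusted p = 0.045), a call lost with median scaling (adjusted p = 0.14) and without any 1 of the IL-13 arrays or control array a or c (adjusted p from 0.0641 to 0.174). TIPARP read 112, 129 and 156 with IL-13, against 179.7, 222 and 195 in the control, and fell by 0.47 ± 0.12 (adjusted p = 0.029). Median scaling ended that call (adjusted p = 0.108), as did leaving out IL-13 array a or b or control array b or c (adjusted p from 0.07 to 0.117). For both genes the 24 h groups did not overlap.

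JUND read 847, 864 and 757 after 24 h of IL-13, against 1219, 892 and 1069 in the 24 h control, and fell by 0.47 ± 0.12 (adjusted p = 0.028). The call was lost in 10 of 17 alternatives, including the values as deposited (-0.35, adjusted p = 0.0641), median scaling (-0.12, adjusted p = 0.561) and leaving out array a or c of either group (adjusted p from 0.0631 to 0.134), and the other 2 probe sets gave -0.17 and 0.01. FOSL2 read 194, 183 and 215 with IL-13, against 168, 135 and 95.5 in the control, and rose by 0.62 ± 0.17 (adjusted p = 0.031). That control had itself fallen: the 0 h control read 232, 203 and 254, and the difference of the 24 h control from it was -0.80 ± 0.17 (adjusted p = 0.014). Array c of the 24 h control was the lowest, and without it the differences were 0.41 with IL-13 (adjusted p = 0.156) and -0.58 in the control (adjusted p = 0.0686). The IL-13 call was also lost without IL-13 array a or c (adjusted p = 0.0711 and 0.13), and the control call without 0 h array c (adjusted p = 0.0557). Both calls were lost with the mean of probe sets. The IL-13 call was also lost with no filter and with only the compared groups in the model. The other 2 FOSL2 probe sets gave 0.32 and 0.63 with IL-13, and -0.27 and -0.57 in the control.

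**Figure D5:**
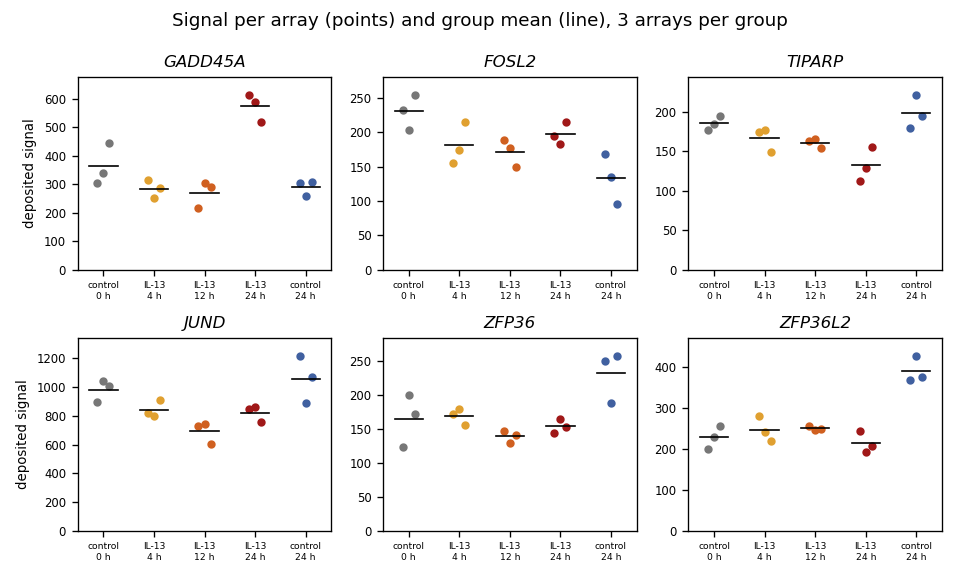
Deposited signal on each array (points) and group mean (line) for the 6 members called between 24 h of IL-13 (dark red) and the 24 h control (blue), with the earlier groups to their left. GADD45A is highest with IL-13 at 24 h, while ZFP36L2 and ZFP36 are highest in the 24 h control, at 368 to 427 and 189 to 258.

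The 8 dim members carry little information, and their absence from the tested genes says nothing of their change. FOS, the defining immediate-early gene, read between 4.34 and 14.2 on all arrays, and FOSB between 3.89 and 12.0. These are far below the pseudocount of 20. EGR3 read 29.1 to 67.8 and SRF 38.5 to 63.1. At 12 h against 0 h the chosen SRF set differed by 0.002, while the other SRF set, also below the filter, gave -0.73. DUSP6, the cytoplasmic ERK phosphatase, averaged 59.1 at 0 h, 39.7 at 4 h, 44.7 at 12 h and 71.1 at 24 h of IL-13, and 60.1 in the 24 h control. This chosen set differed from 0 h by -0.45 at 4 h and -0.34 at 12 h, and by 0.55 between 24 h and 12 h. In the same order another DUSP6 set gave -0.54, -0.48 and 0.94, and the dimmest gave -0.09, -0.10 and 0.06, all below the filter. ETV4, a relative of ETV5, read 37.7, 26.3 and 19.4 after 12 h of IL-13, against 35.2, 73.9 and 68.5 in the 0 h control. NR4A1, an orphan nuclear receptor, had higher signals on its chosen probe set, with 88.8, 103 and 180.4 after 12 h of IL-13, against 29.7, 12.8 and 17.4 in the 0 h control, a difference of 1.78 ± 0.31. With no filter this passed (adjusted p = 0.0081), but its other 2 probe sets, both of the cross-hybridizing kind, gave -0.08 and 0.14, and the 24 h control was also higher than 0 h on the chosen set, at 109, 96.5 and 41.1. NR4A2 averaged between 21.2 and 45.7.

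The pathway genes around these members were compared from lists drawn up by function, with earlier results of these data known. Of 16 tested genes of the ERK cascade, from receptor to kinase targets, 0 were called at 4 h or 12 h, and the medians were 0.00 and -0.02. With 1.22% and 4.14% of all tested genes called at those times, a count of 0 in a list of 16 is near the background share. The EGF receptor EGFR was lower after 24 h of IL-13 than at 0 h (-0.55 ± 0.13, adjusted p = 0.018), and HRAS was lower in the 24 h control than at 0 h (-0.82 ± 0.12, adjusted p = 0.0017). Of 12 tested JNK and p38 kinases, 1 rose and 1 fell at 12 h: MAPKAPK3, a kinase activated by p38, rose by 0.67 ± 0.13 (adjusted p = 0.0050), and RPS6KA4, the nuclear kinase MSK2, fell by 0.43 ± 0.12 (adjusted p = 0.042). MAPKAPK3 was also higher after 24 h of IL-13 than in the 24 h control (0.46 ± 0.13, adjusted p = 0.037), and the upstream p38 kinase MAP2K6 was higher there than at 0 h (0.53 ± 0.16, adjusted p = 0.0496). None of 9 tested SRF partners and upstream factors was called at any IL-13 time, and none of 7 tested relatives of the DUSP and Sprouty genes was called in any comparison. Counts of 0 in lists this short are also near the background, which was at most 7% of all tested genes in any comparison. The JNK and p38 list, with 1 rise and 1 fall among 12 tested genes at 12 h, is too short to set against that share.

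A further list of 31 immediate-early genes, of which 23 were tested, was counted in the same way. At 4 h 7 fell and 1 rose against 0 h, with a median of -0.39, where 1.22% of all tested genes were called. At 12 h 9 fell and 0 rose, with a median of -0.31, where 4.14% of all were called. Between 24 h and 12 h of IL-13 10 rose and 0 fell, with a median of 0.36, where 6.2% of all were called. The chemokine gene CXCL2 fell by 1.44 ± 0.14 at 4 h (adjusted p = 1.5e-05), with a mean signal of 36.7 against 132.7 at 0 h. EREG, which encodes the EGF receptor ligand epiregulin, fell by 1.22 ± 0.12 at 12 h (adjusted p = 8.9e-06), with 126.9 against 323 at 0 h. CCN1, a matrix-associated growth factor target, fell by 1.43 ± 0.17 at 12 h (adjusted p = 9.7e-05), but it also fell in the 24 h control, with a difference of -0.94 ± 0.17 from 0 h (adjusted p = 0.0061). PTGS2, the inducible cyclooxygenase, rose by 1.21 ± 0.17 in the 24 h control from 0 h (adjusted p = 0.00081) and was lower after 24 h of IL-13 than in that control (-0.61 ± 0.17, adjusted p = 0.038). The members and this list share the arrays of each comparison. Both were also chosen with earlier results of these data known, so the list is no independent check of the members.

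Across the 7 comparisons 45 calls were made on 21 members. Of these calls, 16 held in each alternative that could be run, and 21 held when any 1 array of the compared groups was left out. At 12 h against 0 h the calls that held throughout were DUSP5, FOSL1, IER3 and IFRD1, at 4 h IFRD1, and between 24 h and 12 h of IL-13 ATF3, DUSP1, GADD45A, IER3, IFRD1, KLF6 and PHLDA1. Every called difference kept its sign in each alternative.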

How the data were processed

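Labelled samples were 15 single-colour hgu133a arrays. The deposited values are signal intensities per probe set on a linear scale. The steps that made them were not given in the sources used here; each array's mean after trimming 2% at each end is 150. A pseudocount of 20 was added and log2 taken. Array medians differed by 0.35 log2, so arrays were quantile normalized. Each gene was represented by its brightest probe set, with cross-hybridizing sets (_x_at) used only where no other existed, and genes with a mean log2 above 6.33 (50th percentile) were tested. Symbols came from the platform annotation.

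Comparisons used limma 3.58.1 (R 4.3.3): 1 mean per group over 15 arrays, 10 residual degrees of freedom, empirical Bayes with a trend, two-sided p-values with Benjamini-Hochberg adjustment over 6884 genes. The steps were tested on simulated data. Precision is limited by 3 arrays per group. Members and lists were chosen with earlier results of these data known. Named genes are all members, with each array's values for those called, and up to 3 called genes per other list and comparison. Alternatives covered scaling, pseudocount, filter, probe sets, model, replicate block and leaving out arrays. Detection calls were not used here.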

Additional observations from a re-analysis of the deposited data

How the results depend on the processing

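Counts of members called kept within 1.5 times of their value in all 17 alternatives after 24 h of IL-13 against 0 h (2 to 4 against 3) and between 12 h and 4 h (0 throughout). At 4 h against 0 h, where 7 were called, no filter gave 4, and leaving out 1 array gave 2 (4 h array a) to 4, with 3 without 0 h array a or b and 4 without 4 h array b or c or 0 h array c. At 12 h, where 13 were called, no filter gave 8, a filter at the 75th percentile 8, and leaving out 1 array 6 (12 h array c, 0 h array b) to 9, with 8 without 12 h array b and 7 without 0 h array a or c. For 24 h of IL-13 against the 24 h control, where 6 were called, no filter gave 2, only the compared groups in the model gave 3, and leaving out 1 array gave 2 (control array c) to 5, with 3 without IL-13 array a or c. For the 24 h control against 0 h, where 3 were called, median scaling gave 8 (1 higher, 7 lower, with the median of all genes at -0.18) and the mean of probe sets 1. For 24 h against 12 h of IL-13, where 13 were called, leaving out 1 array gave 8 (24 h array a) to 10. The replicate block gave 5, 12, 3, 5, 3, 0 and 12 in the order of the comparisons with 0 h (4 h, 12 h, 24 h), IL-13 against control at 24 h, the controls, 12 h against 4 h, and 24 h against 12 h, but the samples share only a letter: deviations of same-letter arrays from their group means correlated at -0.22 to 0.11 (median -0.00). No call reversed. At the 75th percentile filter FOSL1, EGR1, KLF2, KLF6 and PPP1R15A, which were called at 12 h, were no longer tested. Leaving out an array leaves fewer to compare, and no filter adjusts p-values over more genes. What ended a given call was not tested. The choice of the brightest probe set with _x_at sets allowed was made after seeing the data. Signals below the filter limit what can be said of FOS, FOSB and the other dim members. Over all genes, calls ran from 194 to 1238 for 24 h of IL-13 against the 24 h control and from 66 to 1080 between the controls.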
